A study of Mus musculus with 6 samples.

Results

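The genes of polyamine synthesis and breakdown were followed in mouse CD8+ T cells cultured with or without aminoxyacetic acid (AOA), which inhibits enzymes that depend on PLP, the cofactor made from vitamin B6. The list holds 9 genes chosen by name, namely Odc1, Amd1, Srm, Sms, Sat1, Smox, Azin1, Oaz1 and Oaz2, and 8 of them were found among the 11922 genes of the deposited counts. Amd1 was not analysed here. All 8 passed the low-count filter, which kept 11759 genes. Splenic CD8+ T cells of C57BL6/J mice were taken by magnetic selection for CD8 alpha. The paper used male and female animals of more than 6 weeks of age in its experiments, without naming the sex of these donors. The cells were activated for 72 hours with beads carrying anti-CD3 and anti-CD28 and expanded for a further 4 days. Interleukin-2 was always present at 100 units per ml. The vehicle group received water and the AOA group 0.25 mM AOA over the whole 7 days. Each of 3 mice gave a culture to both groups, so that there were 3 vehicle and 3 AOA libraries of messenger RNA, numbered by mouse. Total counts per library lay between 12881962 and 18934869 with vehicle and between 18696114 and 21997078 with AOA.

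Polyamines are small positively charged molecules that bind RNA and DNA and are made in large amounts when T cells start to divide. Ornithine decarboxylase, encoded by Odc1, is a PLP enzyme and makes putrescine from ornithine. Spermidine synthase (Srm) and spermine synthase (Sms) then add aminopropyl groups, which come from S-adenosylmethionine after its decarboxylation by the Amd1 product, an enzyme that works with a pyruvoyl group and not with PLP. In the reverse direction, the acetyltransferase encoded by Sat1 marks spermidine and spermine for export or oxidation, and spermine oxidase (Smox) turns spermine back into spermidine. Antizymes (Oaz1, Oaz2) bind ornithine decarboxylase and lead it to the proteasome, and the antizyme inhibitor encoded by Azin1 binds antizyme in its place.

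AOA treatment raised the RNA of Odc1, Srm and Azin1 and lowered that of Sat1, Smox and Oaz2, while Sms and Oaz1 did not pass the test. Srm had the largest rise, 5.74-fold, and Smox the largest fall, 6.97-fold. A gene was called changed when its adjusted p was under 0.05 by the edgeR quasi-likelihood test, adjusted over all genes tested after Benjamini and Hochberg. By this rule 6 of the 8 genes were called, beside 53.0% of all genes tested. The 3 raised genes stand beside a background of 26.2% called higher and the 3 lowered genes beside 26.8% called lower. For all 8 genes the AOA libraries lay wholly above or wholly below the vehicle libraries, a property of 62.1% of all genes tested. Of the 8 genes, 5 lay above (31.0% of all genes) and 3 below (31.1%). Their log2 fold changes, AOA relative to vehicle, had a median of 0.55, beside -0.02 for all genes tested, and ran from -2.80 to 2.52. These counts are a description of 8 genes, in libraries where most genes differed between the groups. Levels are given as CPM, the counts of a gene per 1000000 counts of its library, with library sizes normalised by the TMM method, and in bulk cultures fewer cells of a type and less RNA per cell cannot be told apart.

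**Figure D1:**
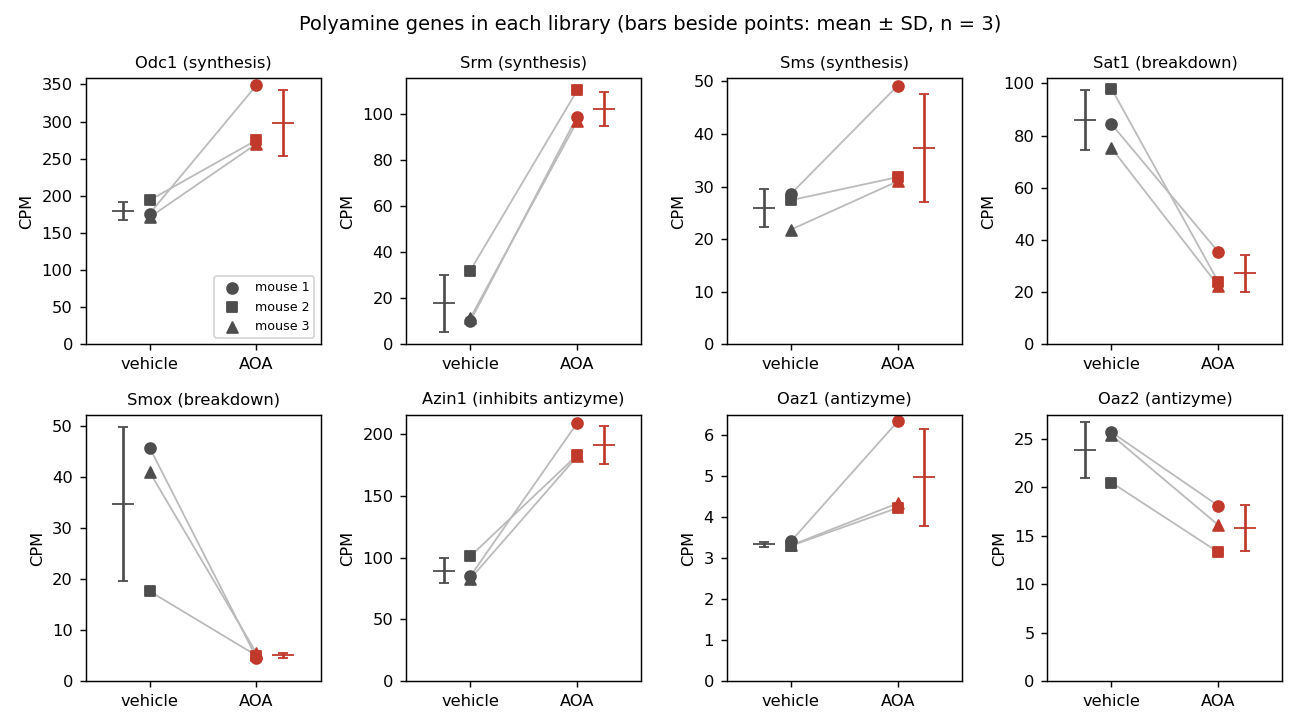
CPM of each polyamine gene (vertical axes from 0) in the vehicle and AOA libraries, with lines joining the cultures of each mouse and bars for the mean ± SD (n = 3). Odc1, Srm, Sms, Azin1 and Oaz1 were higher with AOA in all 3 mice, and Sat1, Smox and Oaz2 were lower in all 3.

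Among the synthesis enzymes, Odc1 (Entrez gene 18263, chromosome 12 of GRCm38 from 17544794 to 17551505) had levels of 176, 194 and 171 CPM in vehicle replicates 1, 2 and 3, compared with 349, 275 and 270 CPM in AOA replicates 1, 2 and 3. All AOA libraries were above all vehicle libraries, with AOA replicate 1 the highest. It rose 1.65-fold, or by 0.73 ± 0.15 (SE) on the log2 scale, with a 95% interval of 0.39 to 1.06 (edgeR adjusted p = 0.00323), and 19% of all genes tested had a larger log2 fold change. The RNA of the PLP enzyme of the pathway was therefore higher in the cultures that held the PLP inhibitor. Its protein and activity were not measured in these libraries.

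Srm (Entrez gene 20810, chromosome 4 from 148591503 to 148594993) stood at 9.92, 31.9 and 11.3 CPM with vehicle and at 98.7, 110 and 96.6 CPM with AOA. The AOA libraries were close to each other, and vehicle replicate 2 was well above the other two vehicle libraries. On the log2 scale the rise was 2.52 ± 0.39 (SE; edgeR adjusted p = 0.000717), and 1.66% of genes tested had a larger one. Without vehicle replicate 2 it was 3.29 (adjusted p = 2.94e-06 by edgeR), the largest value over 13 alternatives, whose adjusted p reached 0.008 at most.

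Sms (Entrez gene 20603, chromosome X from 157443855 to 157492287), which acts after Srm, had 28.6, 27.4 and 21.8 CPM with vehicle and 49.2, 31.8 and 31.0 CPM with AOA. The groups did not overlap, but AOA replicates 2 and 3 lay only slightly above vehicle replicate 1. A log2 difference of 0.53 ± 0.21 (SE, 95% interval 0.06 to 1.00) missed the threshold with an adjusted p of 0.0563 by edgeR. With mouse entered as a replicate block it passed (0.50, edgeR adjusted p = 0.0267), and likewise under DESeq2 (0.54, adjusted p = 0.0399) and with no low-count filter (0.56, edgeR adjusted p = 0.045). It also passed without vehicle replicate 2, AOA replicate 2 or AOA replicate 3 (0.61, 0.64 and 0.65). Without AOA replicate 1 the value was 0.28 and without vehicle replicate 3 it was 0.44, neither of which passed, and over all 13 alternatives its adjusted p lay between 0.0267 and 0.164 (edgeR or the tool named).

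Of the breakdown enzymes, Sat1 (Entrez gene 20229, chromosome X from 155213132 to 155216449) fell from 84.4, 98.0 and 75.2 CPM with vehicle to 35.4, 23.9 and 22.4 CPM with AOA. The lowest vehicle library was above the highest AOA library by a wide margin. This was a 3.15-fold fall, -1.66 ± 0.20 (SE) on the log2 scale (edgeR adjusted p = 0.000191), with a smaller log2 fold change in 6.92% of genes tested.

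Smox (Entrez gene 228608, chromosome 2 from 131491496 to 131525922) had 45.8, 17.6 and 41.0 CPM with vehicle and 4.55, 4.97 and 5.45 CPM with AOA. Vehicle replicate 2, which was the highest vehicle library for Srm, was the lowest for Smox, yet it remained above all AOA libraries. The fall amounted to -2.80 ± 0.33 (SE) on the log2 scale (edgeR adjusted p = 0.000189), and over the alternatives it lay between -3.08 and -2.53, with an adjusted p of at most 0.00463. A share of 2.41% of genes tested had a smaller log2 fold change. Paox (Entrez gene 212503), the peroxisomal oxidase that acts on acetylated polyamines after Sat1, did not pass the test, with 7.38 ± 2.07 CPM (SD, n = 3) in vehicle and 6.29 ± 0.942 CPM (SD, n = 3) in AOA libraries and a 95% interval of the log2 difference from -0.82 to 0.36.

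Markers of other cell types moved with the same contrast. The myeloid markers Itgam and Cd68 were lower with AOA, and the summed level of the 3 myeloid markers found of 5 listed was between 55.2 and 66.5 CPM with vehicle and between 4.18 and 7.77 CPM with AOA. Lyz2, a defining myeloid gene too low to be tested, had 0, 5 and 0 counts with vehicle and 6, 22 and 2 with AOA, the opposite direction. The 3 CD4 T cell markers summed to between 82.2 and 137 CPM with vehicle and between 21.7 and 31.3 CPM with AOA. Cd4 and Cd40lg fell, while Foxp3, at 13.3 ± 2.49 CPM with vehicle and 17.1 ± 1.42 CPM with AOA (SD, n = 3), did not pass. The 4 B cell markers found summed to at most 16.6 CPM with vehicle and at most 30.7 CPM with AOA, and the 3 NK cell markers to between 145 and 308 CPM with vehicle and between 128 and 213 CPM with AOA. Most of the NK cell sum was Eomes, which did not pass, whereas Klrb1c fell from 57.7 ± 47.7 to 7.14 ± 3.84 CPM (SD, n = 3, edgeR adjusted p = 0.0031). Ncr1, too low to be tested, had 0, 37 and 0 counts with vehicle and 5, 11 and 3 with AOA. It was thus lower with AOA in mouse 2 but higher in mice 1 and 3, opposite to Klrb1c. The 5 CD8 T cell markers summed to between 2910 and 3740 CPM with vehicle and to between 3990 and 4640 CPM with AOA. Of these, Cd8a (2.05-fold, edgeR adjusted p = 0.00128) and Cd8b1 (1.56-fold, edgeR adjusted p = 0.0148) were higher with AOA, and Cd3d, Cd3e and Cd3g did not pass, with log2 differences of -0.13, -0.27 and -0.31. Vehicle replicate 2, which stood apart for Srm and Smox, had the highest NK cell sum, with Klrb1c at 111 CPM against 41.7 and 20.1 CPM in vehicle replicates 1 and 3. The part of these shifts in the changes of the listed genes was not tested.

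**Figure D2:**
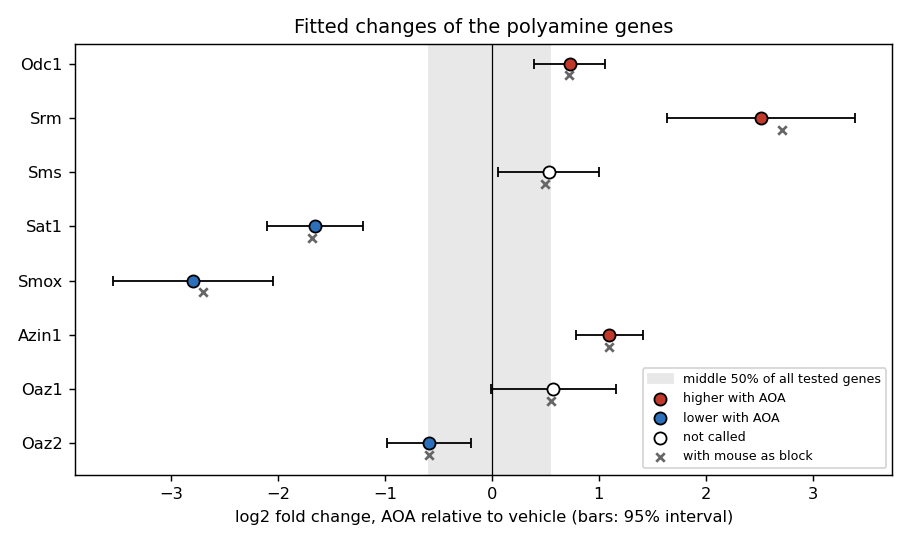
Log2 fold change of each polyamine gene, AOA relative to vehicle, with its 95% interval. Red and blue points passed the test, white points did not, crosses give the fit with the mouse as a block, and the grey band holds the middle 50% of all genes tested, from -0.59 to 0.54. Srm at 2.52 and Smox at -2.80 lie farthest from the band.

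Azin1 (Entrez gene 54375, chromosome 15 from 38487427 to 38519266), whose product spares ornithine decarboxylase from antizyme, stood at 84.8, 101 and 82.7 CPM with vehicle and at 209, 183 and 182 CPM with AOA. The spread within each group was small beside the gap between them. The rise was 2.14-fold, 1.10 ± 0.14 (SE) on the log2 scale (edgeR adjusted p = 0.00025). An antisense gene, Gm49077, overlaps Azin1 on the opposite strand, and whether reads were counted by strand is not stated.

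Oaz2 (Entrez gene 18247, chromosome 9 from 65668001 to 65690300) had 25.7, 20.5 and 25.4 CPM with vehicle and 18.1, 13.3 and 16.1 CPM with AOA. It fell by 0.59 on the log2 scale (SE 0.17, edgeR adjusted p = 0.0182), the smallest of the 6 called changes. The call was lost without vehicle replicate 1 (-0.51), vehicle replicate 3 (-0.52), AOA replicate 2 (-0.47) or AOA replicate 3 (-0.60), and its adjusted p lay between 0.00857 and 0.0748 over the 13 alternatives.

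Oaz1 (Entrez gene 18245, chromosome 10 from 80826656 to 80829290) was the least abundant of the 8 genes in CPM with vehicle, at 3.41, 3.30 and 3.31 CPM, and stood at 6.34, 4.23 and 4.34 CPM with AOA. The groups did not overlap, but the highest value came from AOA replicate 1 alone. The log2 difference, 0.57 ± 0.26 (SE, 95% interval -0.01 to 1.16), was not called (edgeR adjusted p = 0.0888), nor was it under any alternative run. Without AOA replicate 1 it was 0.36. These values rest on only 43 to 138 counts per library.

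The low level of Oaz1 has to be read with its copy. Uniquely mapped reads were counted, and Oaz1-ps, a processed pseudogene on chromosome 17 from 17345456 to 17346140, was counted as a gene of its own. Of the 971 windows of 75 bases, the length of 1 read, in a mature Oaz1 transcript, 55.2% also occurred in Oaz1-ps. The pseudogene had 24.9, 17.8 and 25.4 CPM with vehicle and 45.1, 30.6 and 25.5 CPM with AOA, more than Oaz1 itself in every library. It too differed by 0.57 on the log2 scale (adjusted p = 0.064 by edgeR), and with the counts of both summed, an alternative chosen after the data had been seen, the value was 0.57 (adjusted p = 0.0536 by edgeR, in a range over the alternatives up to 0.228). The level of Oaz1 and its split from the pseudogene are therefore uncertain.

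Antizyme RNA is known for a stop codon that the ribosome passes by shifting its frame by 1 base, which polyamines promote, and this control leaves no trace in counts of RNA. The site is printed for both antizymes and for the pseudogene, because it shows how alike the genes are. Letters in capitals mark the last codon of the first reading frame and its stop codon in the antizyme genes, and the same 6 letters in the pseudogene, the sequences are 5' to 3' in the sense of the gene, and they come from GENCODE vM21 on GRCm38. The first line lies at chr10:80828280-80828309 on the plus strand, the second at chr9:65686257-65686286 on the plus strand and the third at chr17:17345922-17345951 on the minus strand.
Oaz1: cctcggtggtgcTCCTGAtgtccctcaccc
Oaz2: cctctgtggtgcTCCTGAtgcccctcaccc
Oaz1-ps: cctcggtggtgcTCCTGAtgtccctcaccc
In Oaz1 the stop codon follows 68 codons, and the shifted frame runs for another 159. In Oaz2 it follows 32 codons and the shifted frame runs for 157. Oaz1-ps differed from Oaz1 at 0 of these 30 bases and Oaz2 at 2.

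The same count of shared windows was made for the other genes, since a read that fits several places equally well is not counted as unique. Srm and Smox, the genes with the largest changes, shared 0% of their windows with another gene. For Sat1, Azin1 and Oaz2 the share was 2.67%, 5.94% and 6.1%. That of Azin1 was with its antisense gene, which overlaps it on the opposite strand. These windows therefore concern the strand of a read and not a copy elsewhere. Odc1 shared 30.5% of its windows with 13 other gene models and Sms 28.2%, mainly with the pseudogene Sms-ps. How paired reads that include such windows were assigned is not known, and the effect on the fold change was not tested.

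**Figure D3:**
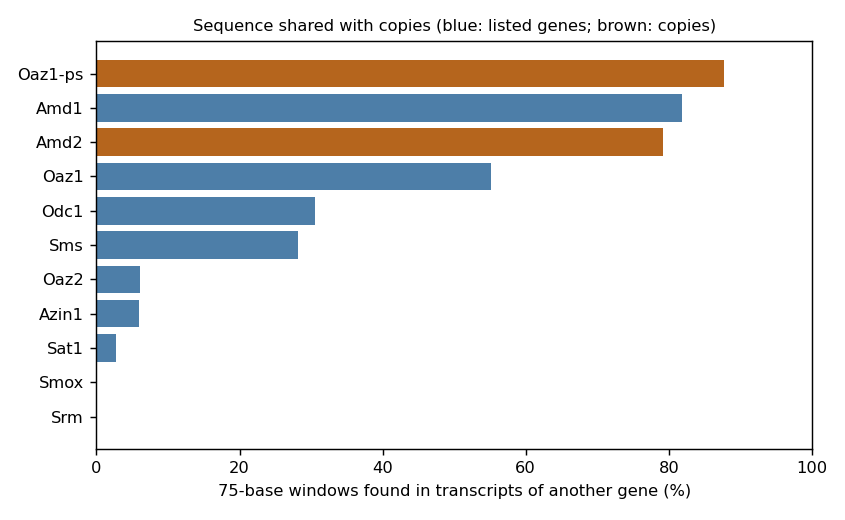
Share of the 75-base windows in the mature transcript of each listed gene (blue) and of the copies Oaz1-ps and Amd2 (brown) that occur in GENCODE transcripts of another gene, in percent, on an axis from 0 to 100. Srm and Smox are at 0%, Oaz1 is at 55.2% and Amd1 at 81.9%.

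For the decarboxylase of S-adenosylmethionine, 81.9% of the windows of Amd1 occurred in other genes, most of them in Amd2 (Entrez gene 100041585), a copy on chromosome 10 from 35708675 to 35711892. Amd2 had 2.62, 3.87 and 2.06 CPM with vehicle and 14.2, 12.6 and 9.23 CPM with AOA, with no overlap between the groups. The rise was 2.08 ± 0.29 (SE) on the log2 scale (edgeR adjusted p = 0.000433). Of the windows of Amd2, 79.2% also occur in Amd1, and how reads were divided between these copies was not tested. Amd2 and Paox were the genes tested of 8 further enzymes and antizyme relatives listed, with 1 higher (26.2% of all genes tested) and 0 lower.

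Levels of different genes were compared per length, as CPM per kilobase of the gene length deposited with the counts. With vehicle, Odc1 at 70.8 ± 4.80 (SD, n = 3) and Sat1 at 67.2 ± 8.97 (SD, n = 3) CPM per kilobase were the most abundant and overlapped each other. Azin1 (17.3 ± 1.91), Smox (15.4 ± 6.67), Srm (13.3 ± 9.27) and Oaz2 (12.9 ± 1.57) followed with differences smaller than the widest of their spreads. Sms (7.68 ± 1.07) and Oaz1 (4.12 ± 0.078) had the lowest means. Single vehicle libraries of Sms (6.46 to 8.46) overlapped those of Srm (from 7.47) and Smox (from 7.79). With AOA the order was Odc1 (117 ± 17.3), Srm (76.6 ± 5.48), Azin1 (37.0 ± 2.97), Sat1 (21.3 ± 5.57), Sms (11.1 ± 3.04), Oaz2 (8.59 ± 1.29), Oaz1 (6.14 ± 1.47) and Smox (2.21 ± 0.198), where Sms overlapped Oaz2 and Oaz2 overlapped Oaz1. With AOA, Smox was the lowest of the 8 genes in each library, while Srm was second to Odc1 in each.

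**Figure D4:**
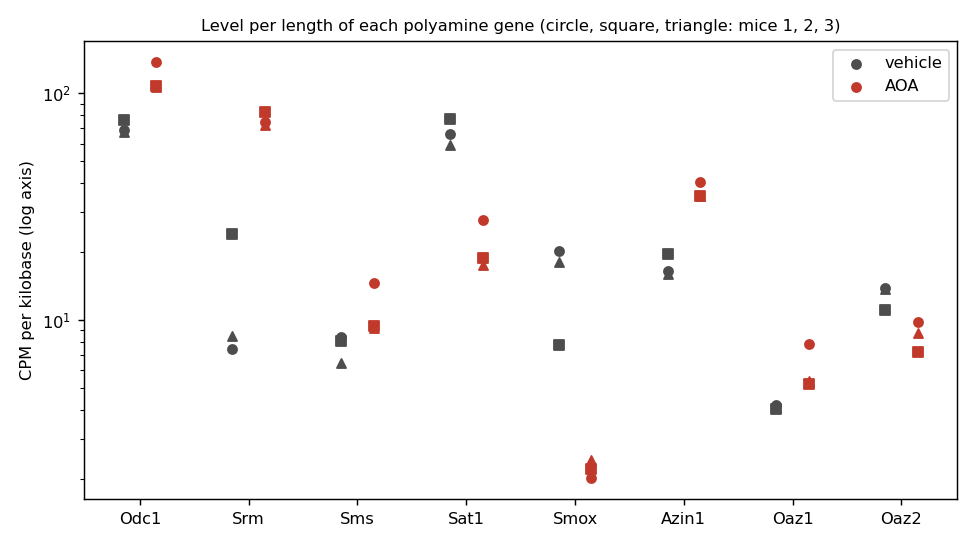
Level of each polyamine gene in CPM per kilobase on a log axis, with vehicle libraries in grey, AOA libraries in red and symbols for mice 1, 2 and 3. Odc1 and Sat1 lie together at the top with vehicle, between 58.9 and 76.7, whereas with AOA Sat1 lies between 17.5 and 27.7 and Odc1 between 106 and 137.

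Ratios within a library, which do not depend on library size, compare the RNA levels of genes in the pathway. The ratio of Odc1 to Sat1 per length was 1.04, 0.994 and 1.14 with vehicle and 4.95, 5.78 and 6.06 with AOA. Srm to Smox stood at 0.369, 3.08 and 0.469 with vehicle and at 36.9, 37.7 and 30.2 with AOA, so that the synthesis gene was the less abundant of the pair in vehicle replicates 1 and 3 only. The ratio of Srm to Sms was 0.883, 2.96 and 1.32 with vehicle and 5.10, 8.80 and 7.92 with AOA. For the regulators, Azin1 to Oaz2 was 1.17, 1.75 and 1.16 with vehicle and 4.12, 4.88 and 4.02 with AOA. In all of these ratios the groups did not overlap, and vehicle replicate 2 was the vehicle library closest to the AOA libraries except in the ratio of Odc1 to Sat1.

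Beyond the listed genes, the supply of precursors was examined with gene lists that were written for this purpose. Of 7 genes of ornithine supply and use 3 were tested, of which 2 were higher and 0 lower, beside 26.2% and 26.8% of all genes tested. Oat, the PLP enzyme ornithine aminotransferase, stood at 32.4, 38.5 and 36.6 CPM with vehicle and at 110, 106 and 109 CPM with AOA. The libraries of each group lay close together, and Oat rose 3.03-fold (adjusted p = 2.52e-05 by edgeR). Slc25a15, the mitochondrial ornithine carrier, rose 2.23-fold (adjusted p = 0.00115 by edgeR), while Aldh18a1, which starts the synthesis of ornithine and proline from glutamate, did not pass (95% interval -0.25 to 0.56).

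For the aminopropyl donor and the by-product of its use, 8 of 9 genes were tested, with 4 higher and 1 lower (median log2 difference 0.33), beside 26.2% and 26.8% of all genes tested. Mat2a, which makes S-adenosylmethionine, had 89.5, 144 and 90.9 CPM with vehicle and 352, 267 and 277 CPM with AOA. It rose 2.76-fold (adjusted p = 0.000515 by edgeR). Mtap, which splits the methylthioadenosine left by Srm and Sms, had 30.2, 42.4 and 35.4 CPM with vehicle and 123, 104 and 102 CPM with AOA, a rise of 3.04-fold (edgeR adjusted p = 7.6e-05). The next steps of this salvage pathway did not move together. Enoph1 rose 2.24-fold and Apip 1.62-fold, Mri1 fell 1.37-fold, and Adi1 and the transaminase Got1, a PLP enzyme, did not pass, with log2 fold changes of -0.18 and -0.04. The regulatory subunit Mat2b did not pass either (-0.22). The call of Apip (0.70, adjusted p = 0.0416 by edgeR) was lost under limma (0.65) and without vehicle replicate 1, 2 or 3 (0.66, 0.71 and 0.80), AOA replicate 1 (0.40) or AOA replicate 3 (0.77), and that of Mri1 (-0.45, adjusted p = 0.0314 by edgeR) was lost without vehicle replicate 1 (-0.33), vehicle replicate 3 (-0.40), AOA replicate 2 (-0.43) or AOA replicate 3 (-0.41).

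Spermidine is also the substrate for hypusine, a modified lysine found in the translation factor eIF5A. Of the 4 genes listed 2 were higher and 0 lower with AOA, beside 26.2% and 26.8% of all genes tested. Eif5a was at 281, 437 and 302 CPM with vehicle and at 1300, 1250 and 1160 CPM with AOA, which was 3.63-fold higher (edgeR adjusted p = 0.000112). Dhps, which transfers the aminobutyl group of spermidine, rose 1.45-fold (0.53, adjusted p = 0.023 by edgeR), a call that was lost without vehicle replicate 3 (0.51) or AOA replicate 1 (0.39). Dohh, which completes the modification, had a log2 fold change of 0.38 (adjusted p = 0.0701 by edgeR) and passed only with no low-count filter (0.41, adjusted p = 0.0497, in a range up to 0.152). Eif5a2, the other eIF5A gene, did not pass (0.35, 95% interval -0.22 to 0.92).

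Among genes of polyamine transport 6 of 11 were tested, with 1 higher and 3 lower, beside 26.2% and 26.8% of all genes tested. The members that fell were Gpc1, Atp13a2 and Slc12a8. Gpc1, a heparan sulfate proteoglycan implicated in polyamine uptake, was at 150, 143 and 108 CPM with vehicle and at 19.2, 28.5 and 25.6 CPM with AOA (log2 fold change -2.45, adjusted p = 2.52e-05 by edgeR). Atp13a2, which exports polyamines from lysosomes, fell 3.45-fold (adjusted p = 0.000196 by edgeR). Slc12a8 fell by 2.07 on the log2 scale from 12 to 18 counts per library to between 3 and 8, and without AOA replicate 2 the value was -2.74. Slc7a1, a carrier of arginine, ornithine and other cationic amino acids, rose from 42.1, 81.8 and 40.3 CPM to 97.7, 159 and 147 CPM (log2 fold change 1.29, adjusted p = 0.00491 by edgeR). Atp13a3, an ATPase of polyamine uptake, did not pass (0.34, adjusted p = 0.0785 by edgeR) except without AOA replicate 1 (0.44, adjusted p = 0.0116, in a range up to 0.245), and Slc3a2 did not pass (-0.16).

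Odc1 is a known target of the MYC transcription factor, which pairs with MAX, whereas MXD proteins and MNT compete for MAX. Of 10 genes of this network tested, 5 were higher and 4 lower, beside 26.2% and 26.8% of all genes tested. Myc itself had 194, 192 and 151 CPM with vehicle and 230, 277 and 228 CPM with AOA (log2 fold change 0.45, adjusted p = 0.0331 by edgeR). That call was lost without vehicle replicate 1 (0.54), vehicle replicate 3 (0.37), AOA replicate 2 (0.36) or AOA replicate 3 (0.51). Mycn rose from 4.21, 4.25 and 5.59 CPM to 25.5, 25.5 and 26.7 CPM, a log2 fold change of 2.46 (adjusted p = 1.95e-05 by edgeR). Max rose 1.44-fold and Mlx 1.45-fold, the latter call being lost without vehicle replicate 1 (0.48), vehicle replicate 3 (0.52) or AOA replicate 1 (0.36). The MXD genes went both ways. Mxd1, Mxi1 and Mxd4 fell by 2.39, 2.04 and 1.89 on the log2 scale and Mnt by 0.76, whereas Mxd3 rose by 2.77, and Mga did not pass (-0.12).

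**Figure D5:**
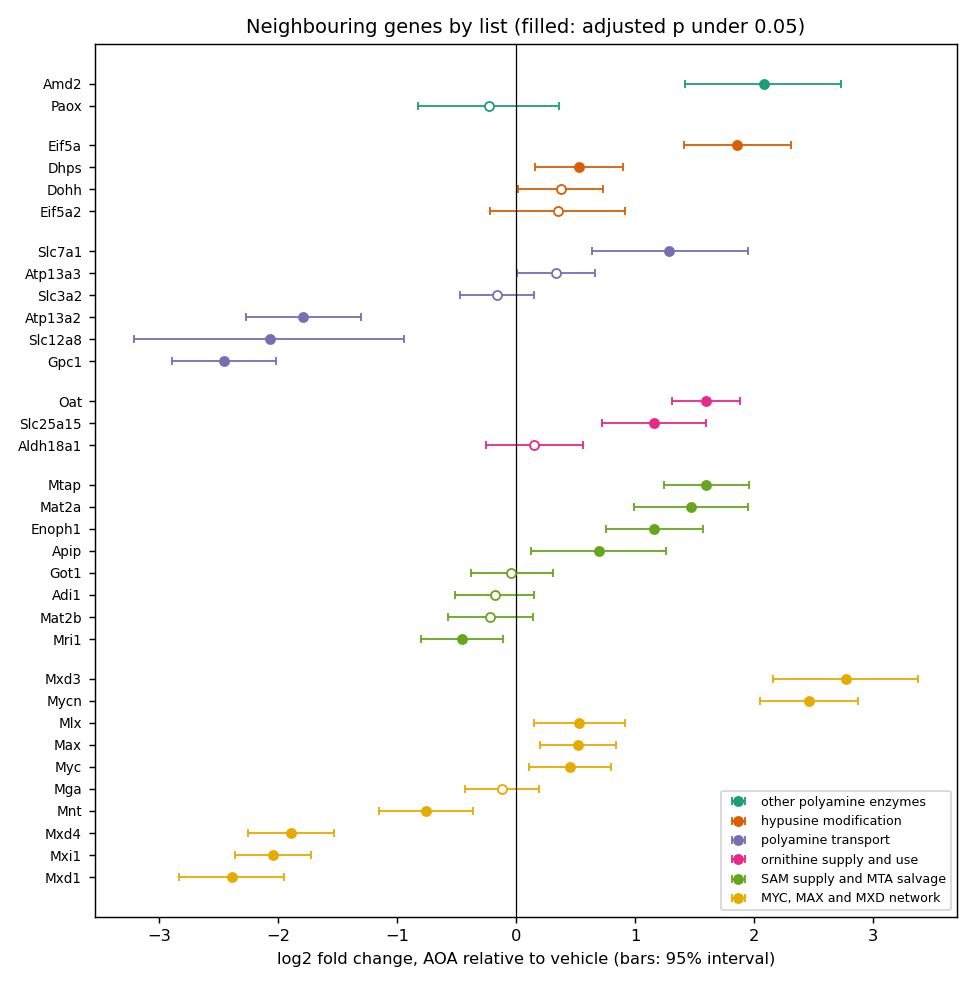
Log2 fold change, AOA relative to vehicle, of the genes tested in each neighbouring list, with 95% intervals and filled points for genes with an adjusted p under 0.05 (SAM, S-adenosylmethionine; MTA, methylthioadenosine). Eif5a at 1.86, Slc7a1 at 1.29 and Mycn at 2.46 lie to the right, Gpc1 at -2.45 and Mxd1 at -2.39 to the left.

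The 5 tested genes whose log2 CPM correlated most with that of Odc1 over the 6 libraries were Mrpl3, Dctpp1, Mrps18a, Sec13 and Dtymk, with Pearson r from 0.9985 for Dtymk to 0.9988 for Mrpl3. Their own log2 fold changes were 1.05, 1.47, 0.98, 1.32 and 1.67, so that the likeness includes the difference between the groups. Within the list, Azin1 was most like Odc1 (r = 0.98) and Smox was opposite to Srm (r = -0.997). These values describe 6 libraries of the same cultures and carry no test.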

How the data were processed

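The authors prepared stranded messenger RNA libraries, sequenced paired-end reads of 75 bases, used STAR with its defaults for alignment and deposited, as raw counts, the reads that mapped uniquely, with a symbol, an Entrez number and a length for each gene. The submitters' processing notes also name bcl2fastq, featureCounts, DESeq2 and the build mm10 (GRCm38). For the annotation, the strand setting and a gene filter, the sources used here give nothing.

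The tests ran in edgeR 4.0.16 under R 4.3.3 (filterByExpr with its minimum count of 10, TMM, robust quasi-likelihood test, group as the only term), with 3 libraries per group. Standard errors were taken from the log2 fold change and its F statistic. Alternatives were DESeq2 1.42.0, limma 3.58.1 (voom), other size factors, other filters, a fold threshold, the mouse as a replicate block and each library left out. Mouse donor numbers in the labels pair the libraries, and within mice 1, 2 and 3 the deviations of both cultures from their group means had, across genes, r of 0.0898, 0.192 and 0.195. Between a vehicle and an AOA culture of different mice, r lay from -0.182 to 0.0298. Replicates differed by more than sampling noise (chi-square per gene of at least 10.2). Steps were tested on simulated data.

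The listed genes were named by the rule, and all of them are described. In the neighbouring lists, up to 4 called genes per direction were named by size of change, with 12 further genes to be named whatever their result, where they were analysed here. Aldh18a1, Mat2b, Adi1, Eif5a2, Slc3a2 and Mga were named after their values were seen, to complete their lists. The members and lists were chosen with earlier results of these data known. Windows of 75 bases were searched on both strands of GENCODE vM21 transcripts, after the base omitted at the antizyme frameshift had been restored from another transcript of the gene. Promoter sequences are from RefSeq on GRCm38.p6.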

Additional observations from a re-analysis of the deposited data

How the results depend on the processing

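The counts of listed genes called stayed between 2 and 4 for higher and between 2 and 3 for lower under all alternatives, and none of the 8 genes changed direction. Oaz1 was not tested with a minimum of 10 CPM. When mouse entered as a replicate block, 4 were higher, the fourth being Sms, and 3 lower, and no other call among the 8 changed. Over all genes, a required change of 1 or more on the log2 scale, either way, left by construction 1418 higher and 1663 lower genes, and with each library left out the counts ranged from 2519 to 3499 and from 2433 to 3297. Got1, not called in any alternative, had log2 fold changes from -0.13 to 0.09 with each library left out and changed sign in 4 of them (0.00, 0.09, 0.02 and 0.01). Other scalings moved the median of all genes to -0.016 (median of ratios) and -0.01 (total counts) from -0.025. Low counts limit Oaz1, Slc12a8 and Amd2 most, and intervals cover the spread between 3 cultures per group.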

Other observations

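The differences were smallest in mouse 2 for most of the listed genes. Of the 8 genes, 6 had their smallest absolute log2 difference between AOA and vehicle in mouse 2, 2 in mouse 1 and 0 in mouse 3, beside 47.0%, 25% and 28.0% of the 11687 genes tested with counts in every library, for mice 2, 1 and 3. For Srm the log2 differences were 3.31, 1.79 and 3.10 in mice 1, 2 and 3, and for Smox they were -3.33, -1.83 and -2.91. Sat1 went the other way, with -1.25, -2.04 and -1.75.

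Promoters were available for 7 of the 9 listed genes in the RefSeq table, from 250 bases before to 50 after the start of a gene. The E-box CACGTG, the core motif of MYC and MAX, which reads the same on both strands, was found in 1 of the 2 promoters of Sms and in none of the others, beside 7.15% of all promoters in the table and 10% of the promoters of tested genes. Among tested genes with a promoter in the table, 11.9% had it at least once. It is shown in capitals in this stretch of the minus strand, at chrX:157492466-157492495 of GRCm38.p6, where its first base lies 196 bases before the start.
Sms: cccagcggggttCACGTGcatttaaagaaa
A match of letters is not a binding site, and the absence of the motif in the other windows covers only these bases.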
